A study of Mus musculus with 4 samples.

Results

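The replication-dependent histone genes were taken as the symbols beginning Hist1h, Hist2h, Hist3h or Hist4h that have a protein-coding RefSeq transcript in the deposited table. Of 20530 such symbols in the table, 67 were histone genes by this rule, represented by 71 transcripts. They comprise 6 genes for the linker histone H1, 18 each for H2A and H2B, 12 for H3 and 13 for H4. Of the 67, 53 lie in the Hist1 cluster on chromosome 13, 10 in Hist2 on chromosome 3, 3 in Hist3 on chromosome 11 and 1, Hist4h4, on chromosome 6. RefSeq lists 66 as protein-coding and Hist3h2bb-ps as a transcribed pseudogene.

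RNA came from the mouse embryonic stem (ES) cell line E14Tg2a, which served as control, and from 3 lines made from it that carry the genotypes Dnm1l-/-, Fis1-/- and Mff-/-. Dnm1l encodes the dynamin-like GTPase that divides mitochondria, and Fis1 and Mff encode proteins of the outer mitochondrial membrane that act with it. All lines were of strain 129/Ola, were at passages 30 to 35 and were grown over embryonic fibroblast feeders in serum with leukemia inhibitory factor. Each genotype was 1 line and 1 library, so no difference has a replicate check and no test was made.

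Replication-dependent histone genes supply the histones that package newly copied DNA, and they are transcribed mainly in S phase, which takes up much of the short cycle of ES cells. Their messages usually have no introns and no poly(A) tail, and end instead shortly after a conserved stem-loop that is bound by the stem-loop binding protein, Slbp. The U7 small nuclear ribonucleoprotein, to which Lsm10 and Lsm11 belong, directs the cut that makes this end. The library kit captures RNA by its poly(A) tail, so the values below describe the part of the histone messages that such a library recovers.

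The 3′ ends of the genes were read from GENCODE vM21 transcripts on mm10. The stem-loop is shown for 4 genes, because its letters divide the family by type and because these genes carry high levels or large differences described below. Capitals mark the 16-base stem-loop, and lower case its flanks of 5 bases.
Hist1h1c, chr13:23739507-23739532, plus strand: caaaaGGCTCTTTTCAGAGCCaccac
Hist3h2a, chr11:58955167-58955192, plus strand: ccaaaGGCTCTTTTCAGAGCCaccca
Hist1h2bk, chr13:22036295-22036320, plus strand: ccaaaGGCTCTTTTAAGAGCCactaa
Hist1h4i, chr13:22040961-22040986, minus strand: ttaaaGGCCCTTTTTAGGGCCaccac
The form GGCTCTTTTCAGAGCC was carried by 26 genes, of types H1, H2A, H2B and H3 and none of H4. The form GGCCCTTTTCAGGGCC was carried by 7 genes, all of them H4. A stem-loop was found in transcripts of 46 of the 67 genes (68.7%), against 0.255% of 58797 protein-coding transcripts. Of the 42 genes whose deposited model and stem-loop share a locus, 41 had a model that ended 0 to 10 bases after it. For these genes the deposited FPKM thus refers, in the main, to a model that stops at the stem-loop.

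The second kind of end is the polyadenylation signal, AATAAA or ATTAAA, searched on the transcript's strand in its last 40 bases. It stood there in 16 histone genes (23.9%) and in 48.7% of all protein-coding transcripts. Of the 16, 14 had the stem-loop as well, upstream in the same transcript except in Hist1h2bp, where another transcript carried it. The ends of 4 genes are shown, with the signal in capitals, because these genes stood below control in Mff-/-, as described further on.
Hist1h1c, chr13:23740332-23740361, plus strand: gtatgcttctAATAAAaagcgtttagtttt
Hist3h2a, chr11:58956787-58956816, plus strand: gtatatgcccAATAAAataagagtacgtgt
Hist3h2ba, chr11:58949497-58949526, plus strand: taatggtattAATAAAtttggttcaatttt
Hist1h4i, chr13:22040637-22040666, minus strand: ttctgtttacATTAAAagtattctatgcta
In Hist1h1c the annotated transcript ran on for 840 bases after the stem-loop, in Hist3h2a for 1643, in Hist1h4i for 330 and in Hist3h2ba for 169. The transcripts of 19 genes had neither motif, and 15 of these were annotated only to within 10 bases of the stop codon. For those 15 the absence of a motif describes the annotation and says nothing of the message. A match is a description of the letters, not proof of a used site.

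The table holds FPKM, fragments divided by transcript length and by library size, whose totals were 623303 (control), 620692 (Dnm1l-/-), 597921 (Fis1-/-) and 707746 (Mff-/-). From the spacing of low values, each library was estimated to hold 35330000 to 37840000 fragments. At this depth 1 FPKM on a transcript of 500 bases stands for 17.7 to 18.9 fragments. The ES cell label was matched by Pou5f1, the core pluripotency factor, at 808 to 1753 FPKM, and all 10 listed ES cell markers passed the level filter. In the library labelled Mff-/-, Mff stood at 11.8 FPKM against 28.9 in control. In that labelled Fis1-/-, Fis1 stood at 56.2 against 103, and in that labelled Dnm1l-/-, Dnm1l stood at 19.1 against 24.5. None of the targeted transcripts was at 0, and the altered part of each gene was not known here.

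The histone genes were low in these libraries. Their summed level was 122 FPKM for control, 117 for Dnm1l-/-, 123 for Fis1-/- and 175 for Mff-/-. A single replication-independent histone gene, H2afz, which encodes the variant H2A.Z from a polyadenylated message, stood at 885, 801, 786 and 1144 FPKM in the same order. The highest member, Hist1h2bc, had a mean of 12.7 FPKM over the 4 libraries, and 4652 other genes had a higher mean. In bulk RNA, fewer cells in S phase and less histone RNA per cell cannot be told apart. The summed values came to an estimated 2397, 2162, 2349 and 3261 fragments.

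Of the 67 genes, 43 reached a mean of 1 FPKM across the libraries, which was the filter for comparisons, and 24 did not. The median mean was 2.04 FPKM for these 43, against 10.01 for all genes that passed. The 15 highest genes held 54.9% of the summed level. Hist1h2aa and Hist3h2bb-ps were listed at 0 in all libraries, and Hist1h2aa encodes an H2A known from the testis.

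**Figure D1:**
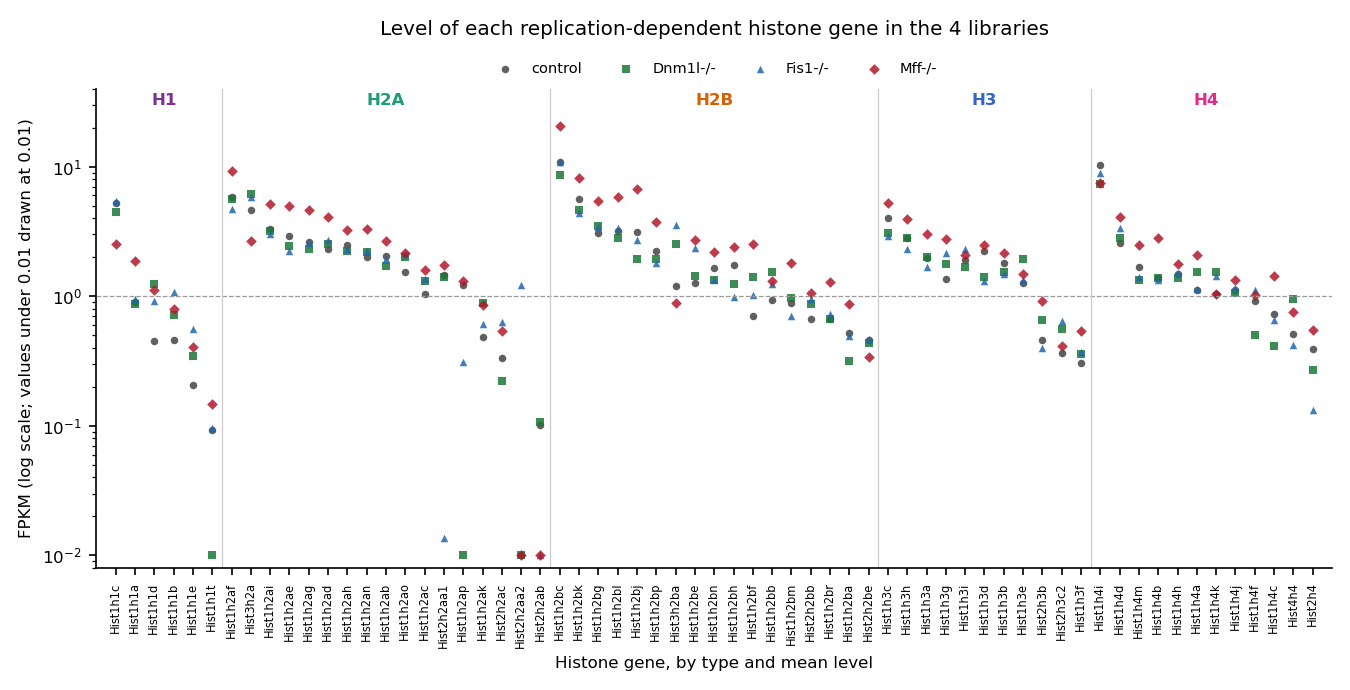
Level of each histone gene in FPKM on a log scale, 1 marker per library, with genes ordered by type and then by mean level; 63 genes are drawn, 4 with a mean under 0.05 FPKM are not, and values under 0.01 are set at 0.01. Hist1h2bc reached the highest level, 20.5 FPKM in Mff-/-, and on the deposited scale the red Mff-/- marker lies above the control marker for 56 of the 63 genes drawn. Of all genes without the filter, 37.9% stood above control in Mff-/-.

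The linker histone H1, which binds DNA between nucleosomes, was led by Hist1h1c. Hist1h1c, which encodes H1.2, had 5.24 FPKM for control, 4.51 for Dnm1l-/-, 5.45 for Fis1-/- and 2.52 for Mff-/-. The first 3 libraries lay close together and Mff-/- lay below them all. The level in Mff-/- was 48.0% of control, with a 95% counting interval of the ratio from 0.353 to 0.648, based on an estimated 65 against 144 fragments. Such intervals cover counting error only and not the spread between cultures.

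The other 5 H1 genes were lower in level than Hist1h1c in control. On the deposited scale all 5 stood above control in Mff-/- and in Fis1-/-, and 3 of 5 in Dnm1l-/-. Of all genes without the filter, 37.9% stood above control in Mff-/-, 41.4% in Fis1-/- and 43.2% in Dnm1l-/-. Hist1h1a, for H1.1, stood at 0.909, 0.869, 0.946 and 1.87 FPKM in control, Dnm1l-/-, Fis1-/- and Mff-/-, the order used for all values that follow. Hist1h1b, for H1.5, stood at 0.460, 0.710, 1.09 and 0.795 FPKM. Hist1h1d stood at 0.452, 1.25, 0.922 and 1.12 FPKM, and Hist1h1e at 0.206, 0.347, 0.558 and 0.406. The testis variant Hist1h1t stood at 0.0926, 0, 0.0963 and 0.147 FPKM. The summed H1 level was 7.36, 7.68, 9.06 and 6.86 FPKM, and H1 was the only type whose sum in Mff-/- lay below control on the deposited scale. That sum rests on Hist1h1c, as the other 5 genes summed to 2.12, 3.18, 3.61 and 4.34 FPKM.

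H2A forms a dimer with H2B in the nucleosome. Its highest gene, Hist1h2af, stood at 5.81, 5.63, 4.73 and 9.21 FPKM. Mff-/- was the highest library for it and Fis1-/- the lowest. Hist3h2a, from the small cluster on chromosome 11, was instead lowest in Mff-/-, at 4.61, 6.11, 5.84 and 2.68 FPKM. Its ratio of Mff-/- to control was 0.583, with a counting interval from 0.402 to 0.835.

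Hist1h2ai stood at 3.33, 3.20, 3.003 and 5.19 FPKM. Hist1h2ae stood at 2.91, 2.44, 2.22 and 4.96 FPKM. Hist1h2ag stood at 2.63, 2.31, 2.58 and 4.604 FPKM. In all of these, which lie in the Hist1 cluster, the Mff-/- value stood above the other 3. The summed level of the 18 H2A genes was 34.3, 34.3, 33.8 and 48.2 FPKM.

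H2B was the type with the largest sum, and also the type with the largest excess in Mff-/-. The summed level of the 18 genes was 38.8, 36.2, 40.4 and 67.9 FPKM, so that H2B made up 31.8% of the histone level in control and 38.8% in Mff-/-. Hist1h2bc stood at 10.8, 8.68, 10.8 and 20.5 FPKM. The ratio of Mff-/- to control was 1.90, with a counting interval from 1.63 to 2.21, on 499 against 267 estimated fragments.

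Hist1h2bc is 1 of 3 histone genes with more than 1 transcript in the table. Its 728-base transcript, which spans chr13:23684199-23692480 and so includes an intron, stood at 7.72, 7.87, 10.8 and 16.8 FPKM. Its unspliced 469-base transcript stood at 3.06, 0.818, 0.000179 and 3.71 FPKM. The longer transcript held most of the level in each library, and the division between the 2, which overlap, is an estimate of the authors' quantification.

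The next H2B genes in level were Hist1h2bk, at 5.66, 4.62, 4.41 and 8.22 FPKM, and Hist1h2bg, at 3.08, 3.48, 3.44 and 5.46. Hist1h2bl stood at 3.20, 2.84, 3.39 and 5.85 FPKM. Hist1h2bj stood at 3.15, 1.93, 2.73 and 6.74 FPKM. Each of these 4 was highest in Mff-/-. For Hist1h2bj the ratio of Mff-/- to control was 2.14, with a counting interval from 1.52 to 3.05.

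Hist3h2ba differed from these. It stood at 1.21, 2.54, 3.54 and 0.882 FPKM, on an estimated 21, 41, 59 and 15 fragments. It was higher in Dnm1l-/- and Fis1-/- than in control and lowest in Mff-/-. Its neighbour in the Hist3 cluster, Hist3h2a, had the same order of Mff-/- below control below the other 2 libraries. The Hist3 sum was 5.81, 8.64, 9.38 and 3.57 FPKM, whereas that of Hist1 was 112, 102, 109 and 165.

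H3, which with H4 forms the core tetramer, was led by Hist1h3c at 3.99, 3.06, 2.93 and 5.21 FPKM. Hist1h3h stood at 2.80, 2.83, 2.31 and 3.98 FPKM. The summed level of the 12 genes was 18.5, 17.8, 16.96 and 25.05 FPKM. In each of the 12, and in each of the 8 that passed the filter, Mff-/- stood above control on the deposited scale. Of all 67 members 59 did so, against 37.9% of all genes without the filter. Among the 12, Hist2h3c1 stood at only 0.0005 FPKM in control and 0.0006 in Mff-/-.

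H4 was led by Hist1h4i, the second highest of all members. Hist1h4i stood at 10.2, 7.33, 8.95 and 7.43 FPKM, so that each knockout lay below control, with ratios of 0.717, 0.875 and 0.726. The counting interval was 0.554 to 0.925 for Dnm1l-/-, 0.688 to 1.11 for Fis1-/- and 0.562 to 0.935 for Mff-/-. These intervals cover counting error on estimated fragments only and are no test of a difference. These ratios share the control library. Hist1h4d stood at 2.56, 2.81, 3.34 and 4.10 FPKM and was lowest in control and highest in Mff-/-. The summed H4 level was 23.2, 20.5, 22.6 and 26.8 FPKM.

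**Figure D2:**
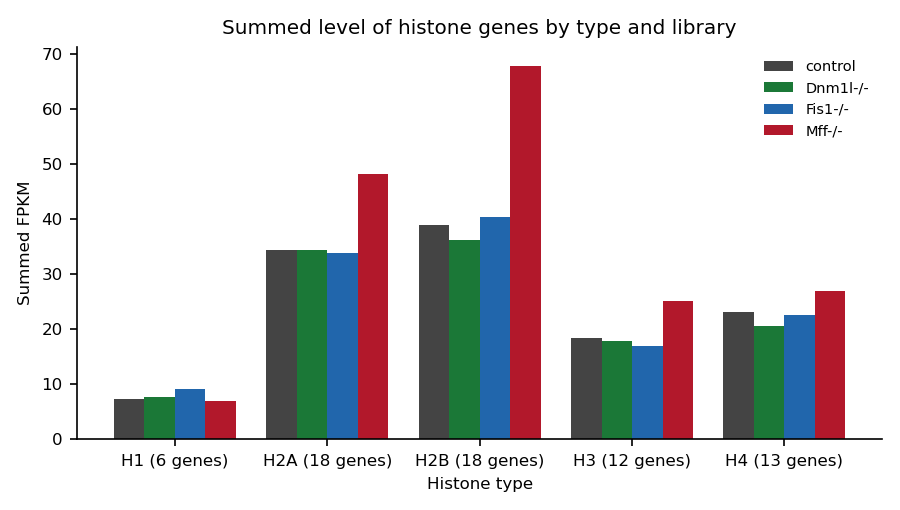
Summed FPKM of the histone genes of each type, 1 bar per library and no error bars because each genotype had 1 library. On the deposited scale the Mff-/- bar is above control for H2A (48.2 against 34.3), H2B (67.9 against 38.8), H3 (25.05 against 18.5) and H4 (26.8 against 23.2), and below it for H1 (6.86 against 7.36).

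In mouse, H2A and H2B genes often lie head to head and share the stretch between their starts. In the table, 11 such divergent pairs were found, with 172 to 305 bases between the 2 genes, and 9 of them had a value above 0 for both genes. The 2 genes of a pair could differ widely in level. Hist1h2ac stood at 1.04, 1.299, 1.37 and 1.604 FPKM across from Hist1h2bc, whose 4 values were given above. Other pairs lay close together, as Hist1h2ai and Hist1h2bl did at 3.33 and 3.20 FPKM in control and 5.19 and 5.85 in Mff-/-. In 8 of the 9 pairs both genes stood above control in Mff-/- on the deposited scale. The exception was Hist2h2be of the Hist2 cluster, at 0.457 FPKM in control against 0.341 in Mff-/-. Of all 67 members 59 stood above control there, against 37.9% of all genes without the filter. The count is thus no result about pairs.

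**Figure D3:**
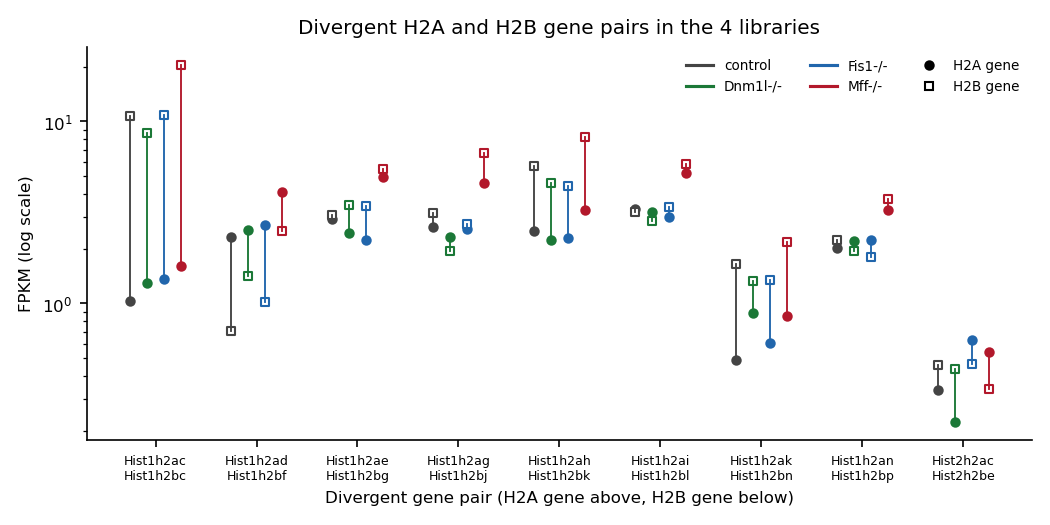
Level in FPKM on a log scale of the H2A gene (circle) and the H2B gene (square) of 9 divergent pairs, joined by a line for each library; 2 pairs with a gene at 0 are not drawn. The widest gap is that of Hist1h2ac and Hist1h2bc, at 1.604 and 20.5 FPKM in Mff-/-.

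Transcript length in the table was short for nearly all members. The median of the longest transcript per gene was 483 bases, with a range of 312 to 2618, against a median of 2753 over all genes that passed the filter. At most 600 bases were listed for 54 of the 67. The 5 shortest were all H4 genes. Hist1h4j, of 312 bases, stood at 1.12, 1.06, 1.16 and 1.34 FPKM, and Hist1h4f, of 358 bases, at 0.921, 0.5001, 1.12 and 1.02. Hist1h4c, of 375 bases, stood at 0.730, 0.414, 0.655 and 1.44 FPKM. Hist1h4n, of 366 bases, stood at 0.0399 in Dnm1l-/- and under 0.0002 elsewhere, and Hist1h4d, of 368 bases, was described above.

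The longest members were low, except that Hist1h2be owed its level to a short transcript. Hist2h2be, of 2618 bases, stood at 0.457, 0.439, 0.468 and 0.341 FPKM. Hist1h2be, with a longest transcript of 2506 bases, stood at 1.26, 1.42, 2.35 and 2.73 FPKM, of which its 445-base transcript held 1.14, 1.33, 2.29 and 2.63. Hist1h2br, of 2121 bases, stood at 0.669, 0.666, 0.727 and 1.28 FPKM, and Hist1h3f, of 903 bases, at 0.306, 0.358, 0.369 and 0.537. Over the 67 members, the rank correlation of mean FPKM with length was -0.07. With FPKM multiplied by the length of the longest transcript, a rough relative number of fragments, it was 0.20. For the 3 genes with more than 1 transcript, Hist1h2be among them, this product overstates the fragments. Both correlations are descriptions across genes that share libraries and sequence.

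Many members are close copies of one another, which bears on every value for a single gene. In the median member, 44.1% of the 50-base words of its GENCODE transcripts also occurred in another member, and in 28 of 67 members more than 50% of them did. The median was 73.0% in H2A, 57.2% in H3, 39.5% in H4, 37.2% in H2B and 1.10% in H1. The share was 2.0% in Hist3h2a, 8.54% in Hist1h1c, 22.1% in Hist3h2ba, 28.9% in Hist1h4i, 29.4% in Hist1h2bc and 65.8% in Hist1h2bf. These shares are taken over all annotated bases, including those past the end of a deposited model. Where the annotation is longer than the model, as in Hist1h4i, Hist1h2bc and Hist3h2a, they can understate the sharing within the model. Fragments from shared words cannot be assigned to 1 gene with certainty.

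The table places 4 pairs of copies on overlapping loci, and 1 of these shows how a value can pass between copies. Hist2h2aa1 stood at 1.46, 1.41, 0.0136 and 1.75 FPKM. Hist2h2aa2 stood at 1.22 FPKM in Fis1-/- and under 0.0001 in the other 3 libraries. Their sum was 1.46, 1.41, 1.24 and 1.75 FPKM, so that the gap seen for each copy in Fis1-/- was not in the sum. Hist1h2ap, at 1.22, 0.000396, 0.309 and 1.32 FPKM, and its copy Hist1h2ao, at 1.52, 2.01, 2.12 and 2.16, summed to 2.75, 2.01, 2.43 and 3.48.

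Each knockout was then set against control as the difference of log2(FPKM + 1), a scale on which low genes show too small a difference, and a gene was counted from a difference of 1, which is 2-fold on that scale. The 3 comparisons share the control library. In Dnm1l-/-, 0 of the 43 histone genes were 2-fold higher and 0 were 2-fold lower, where 2.43% and 2.05% of all 10646 genes were. The median difference was -0.04, against 0.01 for all genes. Of the 43, 19 stood above control, against 51.3% of all genes, and 24 stood below it, against 48.7%. Of all 67 members 32 stood above control and 33 below, against 43.2% and 40.5% of all genes without the filter. Without the filter 0 of the 67 were 2-fold higher, where 1.37% of all 20530 genes were, and 1 was 2-fold lower, Hist1h2ap, where 1.10% were. By type, 6 of the 13 H2B genes that passed the filter stood above control, 5 of 12 H2A, 4 of 8 H3, 4 of 8 H4 and 0 of 2 H1.

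Hist3h2ba, at 0.68, and Hist1h2bf, at 0.50, had the largest positive differences in Dnm1l-/-, followed by Hist1h2bb at 0.39, Hist1h3e at 0.37 and Hist3h2a at 0.34. The FPKM of Hist1h2bb was 0.932 for control and 1.53 for Dnm1l-/-, and that of Hist1h3e was 1.27 and 1.93. The lowest were Hist1h2bj at -0.50, Hist1h4i at -0.43, Hist1h3d at -0.42, Hist1h3c at -0.30 and Hist1h2bh at -0.29. The FPKM of Hist1h3d was 2.23 for control and 1.42 for Dnm1l-/-, and that of Hist1h2bh was 1.75 and 1.25. The counting interval of the ratio for Hist3h2ba was 1.21 to 3.74 around 2.10.

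In Fis1-/-, 1 of the 43 genes was 2-fold higher, Hist3h2ba, where 1.71% of all genes were, and 1 was 2-fold lower, Hist2h2aa1, where 1.89% were. Hist3h2ba reached 2.94 times its control level, with a counting interval from 1.76 to 5.09, and its log2 difference was 1.04. Hist2h2aa1, at -1.28, is the copy whose sum with Hist2h2aa2 differed from control by -0.13. The median difference was 0.01, as for all genes, and 22 of 43 stood above control and 21 below, against 50.9% and 49.1% of all genes. Among all 67 members 37 stood above and 28 below, against 41.4% and 41.7% of all genes without the filter. Without the filter 2 of the 67 were 2-fold higher, Hist3h2ba and Hist2h2aa2, where 0.911% of all genes were, and Hist2h2aa1 was the 1 that was 2-fold lower, where 1.01% were.

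After Hist3h2ba, the largest positive differences in Fis1-/- were those of Hist1h2be at 0.57, Hist1h3g at 0.43, Hist1h2ao at 0.31 and Hist3h2a at 0.29. Hist1h3g stood at 1.35 FPKM in control and 2.17 in Fis1-/-. After Hist2h2aa1, the lowest were Hist1h3d and Hist1h2bh, both at -0.48, Hist1h3c at -0.34 and Hist1h2bk at -0.30. Hist1h3d stood at 1.31 FPKM in Fis1-/- and Hist1h2bh at 0.979. On the deposited scale and with the 1 FPKM filter, the median of the histone genes was within 0.05 of control in Fis1-/- and in Dnm1l-/-. Relative to other genes of at most 600 bases the Fis1-/- median was 0.11, and relative to such genes under 10 FPKM it was 0.18. With a filter of 5 FPKM, which left 4 histone genes, the medians were -0.21 in Fis1-/- and -0.26 in Dnm1l-/-.

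In Mff-/-, most histone genes stood above control by less than 2-fold. On the log2(FPKM + 1) scale 1 of the 43 was 2-fold higher, Hist1h2bf, where 2.56% of all genes were. On that scale 0 were 2-fold lower, where 2.95% were. Without the added 1, the ratio to control also passed 2 in Hist1h2be (2.17), Hist1h2bj (2.14) and Hist1h2bm (2.03). It was 2.06 in each of Hist1h1a, Hist1h3g and Hist1h4b, and 0.48 in Hist1h1c. The median difference was 0.39, against -0.07 for all genes, and it was 0.26 after the libraries were brought to a common FPKM total, -0.19 relative to other genes of at most 600 bases and 0.12 relative to such genes under 10 FPKM. On the deposited scale 39 of 43 stood above control and 4 below, against 44.2% and 55.8% of all genes. Of all 67 members 59 stood above and 6 below, against 37.9% and 45.3% of all genes without the filter. Without the filter 1 of the 67 was 2-fold higher, again Hist1h2bf, where 1.39% of all genes were, and 0 were 2-fold lower, where 1.53% were. The summed level in Mff-/- was 143% of control, and brought to a total of 1000000 per library the sums were 196 in control and 247 in Mff-/-.

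Hist1h2bf stood at 0.703, 1.41, 1.02 and 2.52 FPKM. Its log2 difference in Mff-/- was 1.05, and its ratio was 3.58, with a counting interval from 1.80 to 7.75 on 39 against 11 estimated fragments. The next were Hist1h2bj at 0.90, Hist1h2bc at 0.87, Hist1h2be at 0.72 and Hist1h2bl at 0.71, so that all 5 largest were H2B genes of the Hist1 cluster. By type, the median difference of the genes that passed the filter was 0.57 for H2B, 0.43 for H2A, 0.27 for H4 and 0.24 for H3. These 4 medians lay above 0 also at a common FPKM total, at 0.46, 0.31, 0.15 and 0.11. On the deposited scale all 4 lay below the median of 0.58 of the other genes of at most 600 bases. Against the median of 0.27 of such genes under 10 FPKM, H2B and H2A lay above, H4 was level and H3 lay below.

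The 4 genes below control in Mff-/- were Hist1h1c at -0.83, Hist3h2a at -0.61, Hist1h4i at -0.41 and Hist3h2ba at -0.23. The fifth lowest, Hist1h4k, was level with control at 0.00, from 1.05 FPKM in both. These 4 are the genes whose polyadenylation signals were printed at the start, and 10 of the 43 genes have such a signal. The grouping by annotated end was made after these values were seen, so it is a description. Among those 10 genes, 6 stood above control in Mff-/- and 4 below, with a median difference of 0.15 and sums of 31.4 FPKM in control and 30.2 in Mff-/-.

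Among the 33 genes without a polyadenylation signal at the annotated end, 33 stood above control in Mff-/- and 0 below, with a median of 0.44 and sums of 81.3 and 130 FPKM. Of these 33, 22 had the stem-loop and 11 had neither motif, Hist1h2bc among the latter. All of the 11 but Hist1h1a and Hist1h2bc were annotated only to within 10 bases of the stop codon. In 23 of the 46 genes with a stem-loop the annotation stopped within 100 bases of it, so a signal further on could not be seen. The class without the signal thus describes, in part, where the annotation stops. At a common FPKM total the 33 divided into 30 above and 3 below, with a median of 0.30, and the 10 into 6 and 4, with a median of 0.04. Relative to other genes of at most 600 bases, 11 of the 33 stood above and 22 below, with a median of -0.14, and 2 of the 10 above and 8 below, with a median of -0.43. Relative to such genes under 10 FPKM, 24 of the 33 stood above and 9 below, with a median of 0.16, and 4 of the 10 above and 6 below, with a median of -0.12. The class without the signal had the higher median on the deposited scale. A common total rescales all genes of a library alike, and the short-gene scales subtract the same value from every gene. None of these scales is thus an independent check on the order of the classes. In Dnm1l-/- the medians of the classes with and without the signal were -0.05 and -0.03, and in Fis1-/- they were 0.02 and -0.03.

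**Figure D4:**
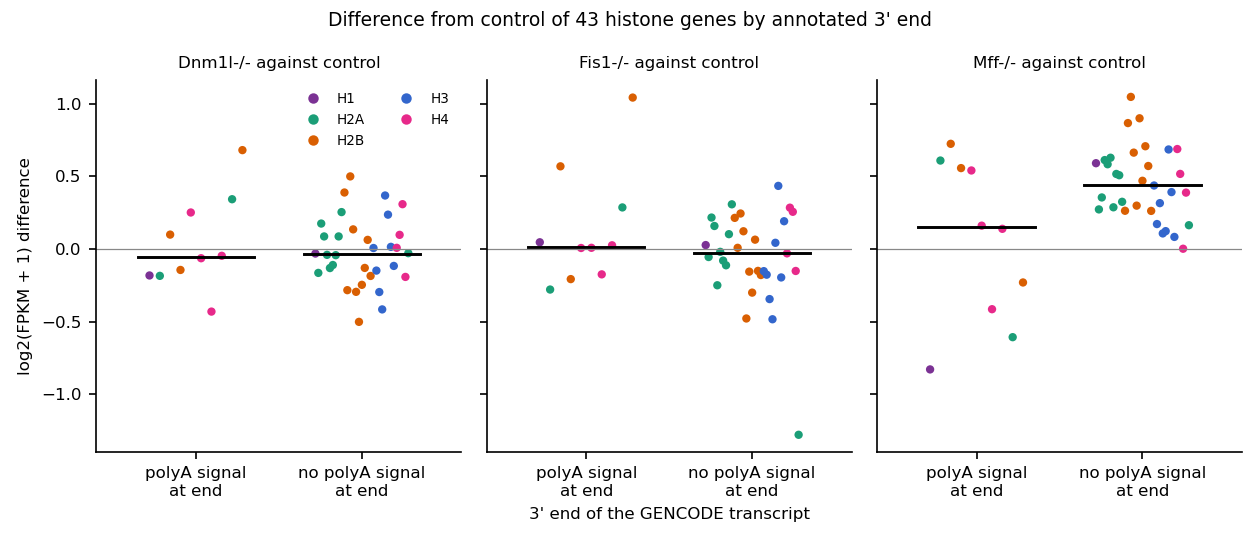
Difference from control, log2(FPKM + 1), of the 43 histone genes that passed the 1 FPKM filter, divided by whether the annotated transcript has AATAAA or ATTAAA in its last 40 bases; points are genes coloured by type and bars are medians. In Mff-/- on the deposited scale the 33 genes without the signal are all above 0 and the 10 with it lie between -0.83 and 0.72. Relative to other genes of at most 600 bases 22 of the 33 are below 0, and relative to such genes under 10 FPKM 9 are. Absence of the signal can reflect where the annotation stops.

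Transcript length moved with the difference in Mff-/- over all genes. Among the other genes that passed the filter, the median difference in Mff-/- was 0.58 for the 187 with transcripts of at most 600 bases, and 85.03% of these stood above control. It was -0.31 for the 2930 with transcripts over 4000 bases. Restricted to genes under 10 FPKM, a level nearer to that of the histones, the median of the 43 short genes was 0.27. The histone median of 0.39 lay between these 2 values, and the part of transcript length in the histone difference was not tested. In Dnm1l-/- and Fis1-/- the short genes had medians of -0.03 and -0.10, and the histone genes -0.04 and 0.01.

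**Figure D5:**
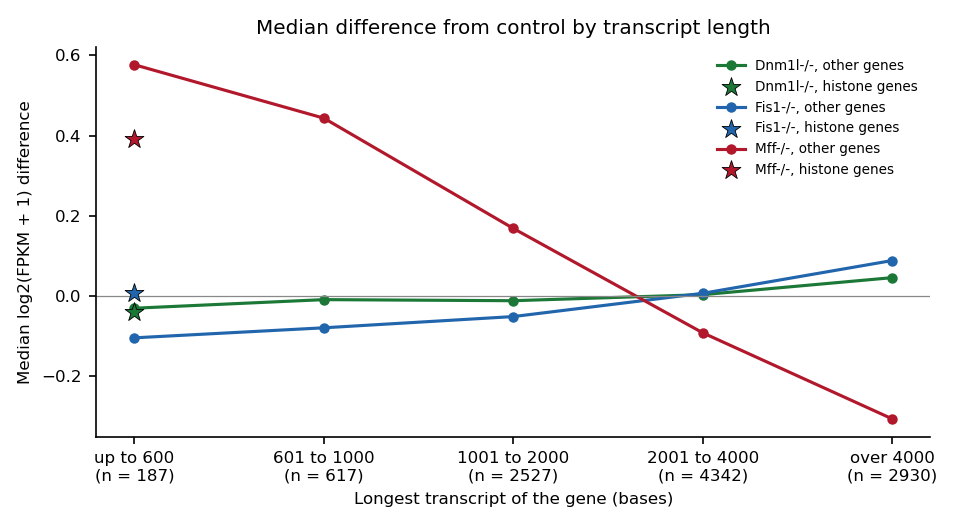
Median log2(FPKM + 1) difference from control by the length in bases of a gene's longest transcript, for other genes (lines, with the number of genes under each class) and for the 43 histone genes (stars, placed in the shortest class). In Mff-/- the line runs from 0.58 to -0.31, and the histone star at 0.39 lies below its start.

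The promoters were read from RefSeq on GRCm38.p6, which held 61 of the 67 genes. TATAAA, on the gene's strand within 50 bases before the start, was present in 27.9% of the histone promoters and in 2.63% of all 32851. CCAAT, on either strand within 250 bases before the start, was present in 82.0% and 33.8%. The H4 genes stood apart here, as 3 of their 12 promoters had CCAAT, against 100% in H1, H2A and H2B and 80.0% in H3. The 120 bases before the start are shown for the gene with the lowest difference in Mff-/-, for the one with the largest, and for the one with the largest in Fis1-/-, with the motifs in capitals, CCAAT also where it is read on the other strand.
Hist1h1c, chr13:23738687-23738806, plus strand: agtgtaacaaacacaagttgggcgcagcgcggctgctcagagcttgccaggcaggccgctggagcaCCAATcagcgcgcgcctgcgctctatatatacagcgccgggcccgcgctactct
Hist1h2bf, chr13:23574208-23574327, minus strand: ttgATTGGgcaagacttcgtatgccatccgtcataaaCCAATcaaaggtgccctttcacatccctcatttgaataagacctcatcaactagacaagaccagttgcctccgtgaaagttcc
Hist3h2ba, chr11:58948791-58948910, plus strand: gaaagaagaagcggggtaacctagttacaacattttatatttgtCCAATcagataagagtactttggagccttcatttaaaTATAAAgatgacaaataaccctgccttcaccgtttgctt
All 3 held CCAAT, and only that of Hist3h2ba held TATAAA in the window searched.

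For the related lists, counts of genes 2-fold from control are read against the shares of all genes given above, which were 2.43% higher and 2.05% lower in Dnm1l-/-, 1.71% and 1.89% in Fis1-/-, and 2.56% and 2.95% in Mff-/-. At these shares a list of 11 to 52 genes would hold few such genes, so counts this small are no result about a list. Among the factors that make, protect and remove histone messages, Slbp stood at 78.0, 88.0, 90.9 and 76.5 FPKM. Npat, the activator of histone transcription in S phase, stood at 4.82, 6.93, 7.39 and 4.58 FPKM. For these 2 genes Mff-/- was close to control and the other knockouts lay higher, by at most 0.53 on the log2 scale.

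Lsm11 stood at 1.54, 1.35, 1.56 and 1.08 FPKM, and Zfp473, a zinc finger protein that links the stem-loop to the U7 particle, at 8.02, 9.16, 10.2 and 7.48. Eri1, an exonuclease that trims the histone stem-loop, stood at 10.97, 10.1, 10.9 and 7.57 FPKM. Of the 39 genes in the list of histone message processing and decay, 0 were 2-fold from control in Dnm1l-/-. In Fis1-/- 1 was lower, Nelfcd, a subunit of the negative elongation factor, at 53.8 FPKM in control and 25.8 in Fis1-/-.

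In Mff-/- 2 genes of this list were higher and 1 lower. Lsm10 stood at 9.88 FPKM in control against 23.2 in Mff-/-, and Snrpd3, which encodes an Sm core protein shared by U7 and spliceosomal particles, at 246 and 551. Their transcripts, of 913 and 604 bases, fall in the length classes that stood above control in Mff-/-, and the part of length was not tested. Dis3l2, an exonuclease that degrades uridylated RNA, stood at 7.65 and 3.32 FPKM. At a common FPKM total the number higher was 0.

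Replication-independent histone genes had no common direction in Mff-/-. Of the 11 that passed the filter, 5 stood above control in Mff-/-, with a median difference of -0.07. In Dnm1l-/- and in Fis1-/- 4 of the 11 did, with medians of -0.15 and -0.17. Of all genes that passed, 44.2% stood above control in Mff-/-, 51.3% in Dnm1l-/- and 50.9% in Fis1-/-. The macroH2A gene H2afy2 stood at 8.90 FPKM in control against 3.41 in Mff-/-, and H1fx, an H1 variant, at 21.5 in control and 9.77 in Dnm1l-/-. None of the 11 was 2-fold from control in Fis1-/-.

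Of 28 histone chaperones, 0 were 2-fold from control in any knockout. Of 52 genes of DNA replication and proliferation, Top2a, a topoisomerase of dividing cells, was 2-fold higher in Fis1-/-, at 160 FPKM against 78.6 in control. Dut, which removes dUTP from the nucleotide pool, was 2-fold higher in Mff-/-, at 112 against 49.2, and at a common FPKM total the number of these genes 2-fold higher in Mff-/- was 0. Pcna, the sliding clamp of replication, stood at 387, 414, 424 and 469 FPKM, and the proliferation marker Mki67 at 34.9, 35.5, 41.8 and 28.6.

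Other RNAs without a poly(A) tail were measured in the same libraries. Of 29 listed, 22 were in the table, 12 of them at 0 in all libraries, and their summed level was 28.3, 10.5, 17.4 and 29.4 FPKM. It was thus close in control and Mff-/-, but much of it was 1 RNA, Snora7a, at 9.39, 0, 0 and 11.2 FPKM. Of the 7 that passed the filter, 4 stood above control in Mff-/-, so single RNAs lay on both sides. The part of these RNAs in the histone values was not tested. Feeder fibroblast markers summed to 9.58, 9.07, 9.47 and 21.3 FPKM over 10 genes. Of these, 3, Thy1, Col1a1 and Col1a2, passed the filter and stood above control in Mff-/-. Much of the rise of the sum in Mff-/- was Thy1, at 4.10, 3.98, 3.55 and 11.9 FPKM. Fbn1 stood below control there, at 0.280 FPKM against 0.410. The part of these markers in the histone values was not tested either.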

How the data were processed

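The authors deposited 1 table of FPKM values for 33818 RefSeq transcripts, in which each library has a column and each transcript a length in bases and a position, per the file headers. Per the submitters' processing notes, which give neither the role nor the order of the tools, these were STAR 2.5.2b, StringTie 1.3.3b, FastQC 0.11.5 and R 3.6.1, with the build mm10. The sources used here do not state whether fragments were counted by strand. FPKM scales each library by its own fragments and does not sum to a common total. The column named for the protein Drp1 was matched to Dnm1l-/-. Starts were raised by 1, so positions count from 1, and 1 empty line was not analysed here.

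FPKM was summed per symbol over protein-coding transcripts. Differences were taken on log2(FPKM + 1) for genes with a mean of at least 1 FPKM. The table holds no counts, so fragments were estimated. In single-transcript genes of at least 3000 bases, 88.3% to 92.2% of low FPKM values times length lay within 0.15 of a whole multiple of 1 fragment. Among low histone transcripts only 11 of 36 did in control, 10 of 38 in Dnm1l-/-, 8 of 35 in Fis1-/- and 6 of 24 in Mff-/-. That is about the share that values without such spacing would give. Histone fragments are therefore approximate, and the exact (Clopper-Pearson) 95% intervals of ratios treat these estimates as whole counts. The scripts were tested on simulated data. Python 3.11.15, numpy 2.4.6, pandas 2.3.3, scipy 1.17.1 and matplotlib 3.10.9 were used.

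The members and gene lists were chosen with earlier results of these data known. Genes were named by rule: the 15 highest, the 5 largest differences each way per comparison, the highest of each type, the 5 longest and shortest transcripts, those at 0 by name, fixed genes of related lists, and genes of those lists 2-fold from control. Other members and genes named, among them Hist1h1a, Hist1h2ac, Hist1h2ap, Hist2h2aa2 and H2afz, were chosen after their values were seen. Pairs, copies, promoters, ends and length classes were examined after values were seen. Other scalings, pseudocounts, filters and transcript sets were tried as alternatives.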

Additional observations from a re-analysis of the deposited data

How the results depend on the processing

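No paired analysis was possible because each genotype had 1 library, and for the same reason no replicate could be left out. A count was taken as kept within 1.5 times, a median within 0.1, and a sum or share within 1.5 times. A change of sign was counted only for medians of at least 0.1 in size in the main setting. Smaller medians that changed sign were counted as kept or moved. By these measures 187 of 248 recomputed values were kept, 55 moved and 6 changed sign. Over the alternatives the median log2 difference of the histone genes ranged from -0.26 to 0.00 in Dnm1l-/-, from -0.21 to 0.18 in Fis1-/- and from -0.19 to 0.55 in Mff-/-.

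With libraries brought to their mean FPKM total, the Mff-/- median was 0.26 and by type -0.24 (H1), 0.31 (H2A), 0.46 (H2B), 0.11 (H3) and 0.15 (H4). There, 0 histone genes were 2-fold higher in Mff-/-, 0 processing genes lower in Fis1-/-, and 0 processing and 0 replication genes higher in Mff-/-. At a total of 1000000 (TPM), where 52 histone genes passed the filter, 1 was 2-fold lower in Dnm1l-/- and 1 in Mff-/-. The sums there were 196 in control, 188 in Dnm1l-/- and 205 in Fis1-/-. On that scale the H1 medians were 0.13, 0.33 and 0.43 in Dnm1l-/-, Fis1-/- and Mff-/-, of which the first and last changed sign as more H1 genes passed the filter. The H2B median in Dnm1l-/- changed sign to 0.0003, and the Mff-/- medians were 0.30 (H2A), 0.46 (H2B) and 0.12 (H3). Processing genes then numbered 0 lower in Fis1-/- and 1 higher in Mff-/-, and replication genes 0 higher in Mff-/-.

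With a pseudocount of 0.1, 1 histone gene was 2-fold higher in Dnm1l-/-, and 3 were higher and 1 lower in Mff-/-. The Mff-/- medians were then 0.55 for all, 0.61 (H2A), 0.81 (H2B) and 0.40 (H4). With a pseudocount of 5, 0 were higher or lower in Fis1-/- and 0 higher in Mff-/-, whose median was 0.20. With no filter (67 histone genes), 1 was lower in Dnm1l-/- and 2 higher in Fis1-/-. The H1 medians were then 0.064, 0.21 and 0.26, of which those of Dnm1l-/- and Mff-/- changed sign. Those of H2B and H3 were -0.010 in Dnm1l-/- and -0.031 in Fis1-/-, and the Mff-/- medians were 0.30 (H2A), 0.46 (H2B) and 0.16 (H4). With a filter of 5 FPKM 4 histone genes were left, 0 were higher or lower in Fis1-/- and 0 higher in Mff-/-, and the medians were -0.26, -0.21 and 0.53.

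With copies on overlapping loci summed, an alternative chosen after seeing the data, 0 histone genes were lower in Fis1-/-. Centred on other genes of at most 600 bases, also chosen after seeing the data, the Mff-/- median changed sign to -0.19, with 0 genes higher and 2 lower, and the Fis1-/- median was 0.11. Centred on such genes under 10 FPKM, the medians were 0.12 and 0.18, with 0 higher and 1 lower in Mff-/-. Where no reason is given, the cause was not tested. Depth limits the low members most: 1 FPKM on 500 bases is 17.7 to 18.9 fragments.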
